A study of Mus musculus with 3 samples.

Results

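The 10 cytoskeleton genes described here are the cytoplasmic actins Actb and Actg1, the actin-binding peptides Tmsb4x and Tmsb10, the monomer and filament regulators Pfn1 and Cfl1, the branching subunit Arpc2, the bundling protein Lcp1, the coronin Coro1a and the intermediate filament gene Vim. They were picked by symbol, and each of the 10 symbols matched 1 of 55536 annotated genes, all of them among the 22015 protein-coding genes on nuclear chromosomes. RNA was sequenced from the cytosol of mouse bone marrow-derived macrophages (BMDM), primary cells of strain C57BL/6J, after ribosomal RNA had been depleted. The cells had received 100 ng/ml lipid A, a TLR4 agonist, for 25 min. The study is a single group of 3 biological replicates that share 1 donor record, with age and sex not collected and no genetic change named. No unstimulated sample was analysed here, so every value below is a description of stimulated cells and no test between conditions exists.

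Actin monomers assemble into polar filaments, and a macrophage rebuilds this network when it moves, spreads or engulfs a particle. Thymosins hold monomers in reserve, profilin hands them to growing filament ends, cofilin severs old filaments, the Arp2/3 complex starts branches, plastins tie filaments into bundles and coronins act with cofilin and Arp2/3. Vimentin, the Vim product, does not belong to the actin system; it forms intermediate filaments, which are abundant in mesenchymal and many haematopoietic cells.

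Library depth was 53055764, 43620362 and 38623777 expected counts in replicates 1, 2 and 3. A count of 3 corresponded to 0.0566, 0.0689 and 0.0777 CPM, counts relative to the library size, a limit that covers counting error only. Macrophage markers were present (7 of 7 at 1 TPM or more in every library, with Lyz2 at 4141, 4025 and 6668 TPM), where TPM is the deposited level per transcript length. T and NK cell, B cell, erythroid, stromal and muscle markers reached 1 TPM in every library for 0 of 22 listed genes, while 3 of 7 neutrophil markers did, led by S100a9 at 15.9, 27.4 and 17.4 TPM, and so did 1 of 4 megakaryocyte markers, Pf4. Nuclear protein-coding genes held 22.7, 22.9 and 29.8% of all gene TPM in replicates 1, 2 and 3, so the same make-up of coding RNA gives higher TPM values in replicate 3.

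The 2 actins and the 2 thymosins differ in sequence in ways that bear on how their RNA can be told apart. The coding sequences of Actb-201 and Actg1-202 have 1125 bases each (375 codons) and were identical at 88.6% of bases. They differ in 125 codons, of which 4 encode another residue, and all 4 lie among the first 20 codons, printed here with the 9 differing bases in capitals (mm10, minus strand; chr5:142905627-142905686 for Actb and chr11:120348032-120348091 for Actg1).
Actb-201: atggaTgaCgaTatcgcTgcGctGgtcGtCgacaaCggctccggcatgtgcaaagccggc
Actg1-202: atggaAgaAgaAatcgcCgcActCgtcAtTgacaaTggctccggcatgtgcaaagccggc

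The whole coding sequences of the 2 thymosins, 132 bases or 44 codons each, were identical at 69.7% of bases. Capitals mark the 40 differing bases, and 11 of the 27 differing codons encode another residue (mm10, minus strand; spans with introns chrX:167207504-167208036 and chr6:72957621-72958012).
Tmsb4x-201: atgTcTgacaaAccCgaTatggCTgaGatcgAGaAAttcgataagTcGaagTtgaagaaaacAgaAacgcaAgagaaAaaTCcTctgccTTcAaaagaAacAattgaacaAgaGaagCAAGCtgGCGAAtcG
Tmsb10-203: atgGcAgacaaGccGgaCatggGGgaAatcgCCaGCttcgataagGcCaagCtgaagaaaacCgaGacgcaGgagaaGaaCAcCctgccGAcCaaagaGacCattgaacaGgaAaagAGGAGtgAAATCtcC

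Together the 10 genes made up 2.37, 2.72 and 2.31% of nuclear protein-coding TPM in replicates 1, 2 and 3 (2.47 ± 0.22%, SD, n = 3). Their share of nuclear protein-coding counts, which is not scaled by length, was 1.54 ± 0.13%. Actb and Tmsb4x alone held 58.8 ± 0.44% of the members' TPM. All 10 members reached 1 TPM in every library, against 41.3% of nuclear protein-coding genes, a count that follows from a group picked as abundant. In bulk RNA of this kind, fewer cells that make a transcript and less of it per cell cannot be told apart.

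Actb, the beta isoform of cytoplasmic actin (chr5:142903115-142906754, minus strand, mm10 here and below), had 1578, 1966 and 1990.3 TPM in replicates 1, 2 and 3, from 276208, 266905 and 199576 counts. Its mean of 1845 ± 231 TPM was the 10th highest of the 22015 nuclear protein-coding genes. Replicate 1 was the lowest library and the other 2 lay close together. Actg1, the gamma isoform (chr11:120345690-120348542, minus strand), had 504, 674 and 685 TPM in the same libraries (621 ± 102 TPM, rank 33) and the same low replicate.

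The beta isoform exceeded the gamma isoform in every library. Actb was 3.13, 2.92 and 2.90 times as abundant as Actg1, so it held 74.9 ± 0.80% of the TPM of the pair. The ratio varied by 0.13 (SD, n = 3), a small part of its mean of 2.98. The other actin genes were near 0: Acta2 (smooth muscle actin) had 13, 9 and 5 counts, Acta1 and Actg2 had 1 count each in a single library, and Actc1 and Actbl2 had 0 counts in all 3.

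Tmsb4x, thymosin beta 4 (chrX:167207093-167209315, minus strand), had 1561, 1685 and 2084 TPM (1777 ± 273 TPM, rank 11). Replicate 3 was the highest. Actb and Tmsb4x could not be ordered: Tmsb4x was at 0.99, 0.86 and 1.05 times the Actb level, above it in 1 library and below it in 2. Tmsb10, the second thymosin (chr6:72957347-72958748, minus strand), had 325, 270.0 and 388 TPM (328 ± 59.3 TPM, rank 83), lowest in replicate 2.

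Tmsb4x exceeded Tmsb10 4.80-fold, 6.24-fold and 5.36-fold and held 84.4 ± 1.72% of the TPM of the pair. That ratio moved more between libraries than the actin ratio did, and the gap was widest in replicate 2, where Tmsb10 was low. The 4 Tmsb15 genes on the list had between 0 and 3 counts in any library.

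Pfn1, profilin 1 (chr11:70651850-70654644, minus strand), had 414, 405 and 528 TPM (449 ± 68.7 TPM, rank 50). It held 99.7% of the TPM of the 4 profilin genes. Pfn2 followed at 1.17 ± 0.22 TPM, and Pfn3 and Pfn4 had at most 3 counts in a library.

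Cfl1, the non-muscle cofilin (chr19:5490455-5495201, plus strand), had 249, 287 and 325 TPM (287 ± 38.0 TPM, rank 100). Replicate 1 was the lowest and replicate 3 the highest. Its relatives of the same severing family were lower in each library: Dstn, which encodes destrin, was at 40.3 ± 6.92 TPM and the muscle form Cfl2 at 4.85 ± 0.68 TPM, leaving Cfl1 with 86.4 ± 1.34% of the family. Pfn1 exceeded Cfl1 1.66-fold, 1.41-fold and 1.63-fold.

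Arpc2, which with Arpc4 forms the core of the Arp2/3 complex (chr1:74236084-74268209, plus strand), had 167, 170.1 and 203 TPM (180.0 ± 20.1 TPM, rank 182). Replicates 1 and 2 were nearly equal and replicate 3 was higher. Within the complex Arpc2 held 16.6 ± 0.78% of the TPM of 10 listed genes. The subunits Actr3 (199.5 ± 19.4 TPM), Arpc3 (193 ± 46.5 TPM) and Arpc1b (171 ± 41.2 TPM) had means like that of Arpc2, and the Arpc2 over Arpc3 ratio was 0.97, 1.06 and 0.83, on both sides of 1. Arpc5, Actr2 and Arpc4 lay at 124 ± 12.4, 105 ± 17.0 and 84.4 ± 16.8 TPM. The alternative subunits Arpc1a and Arpc5l were lower, at 21.9 ± 5.53 and 11.4 ± 2.07 TPM, and Actr3b had 9 to 15 counts.

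Lcp1, L-plastin, the bundling protein of leukocytes (chr14:75131101-75230842, plus strand), had 176, 213 and 220.5 TPM (203 ± 23.5 TPM, rank 155). It held 99.3 ± 0.15% of plastin TPM. The isoform of other tissues, Pls3, was at 0.93, 1.33 and 1.82 TPM, and Pls1 had 1, 2 and 0 counts.

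Coro1a, the coronin known for its high level in leukocytes (chr7:126699773-126707787, minus strand), was the least abundant of the 10, with 35.4, 43.0 and 57.0 TPM (45.1 ± 11.0 TPM, rank 860). It did not lead its family. Coro1b at 65.9 ± 14.0 TPM and Coro1c at 64.4 ± 3.44 TPM were each higher than Coro1a in all 3 libraries, and Coro1a held 19.3, 21.2 and 23.0% of coronin TPM. Coro7, Coro2a and Coro2b followed at 20.8 ± 4.20, 13.6 ± 1.99 and 1.54 ± 0.28 TPM, and Coro6 had 1 count in a single library.

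Vim (chr2:13573927-13582826, plus strand) had 368, 509 and 394 TPM (424 ± 75.0 TPM, rank 57), highest in replicate 2. It held 99.9 ± 0.062% of the TPM of 13 listed intermediate filament genes. Nes, which encodes nestin, came next with 168, 466 and 78 counts. Prph had 3, 0 and 3 counts, Ina 1, 0 and 3, Sync 2, 1 and 2, and Nefh 1, 1 and 0. The genes for desmin (Des), glial filaments (Gfap), simple keratins (Krt8, Krt18, Krt19) and the neurofilaments Nefl and Nefm had 0 counts in every library.

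**Figure D1:**
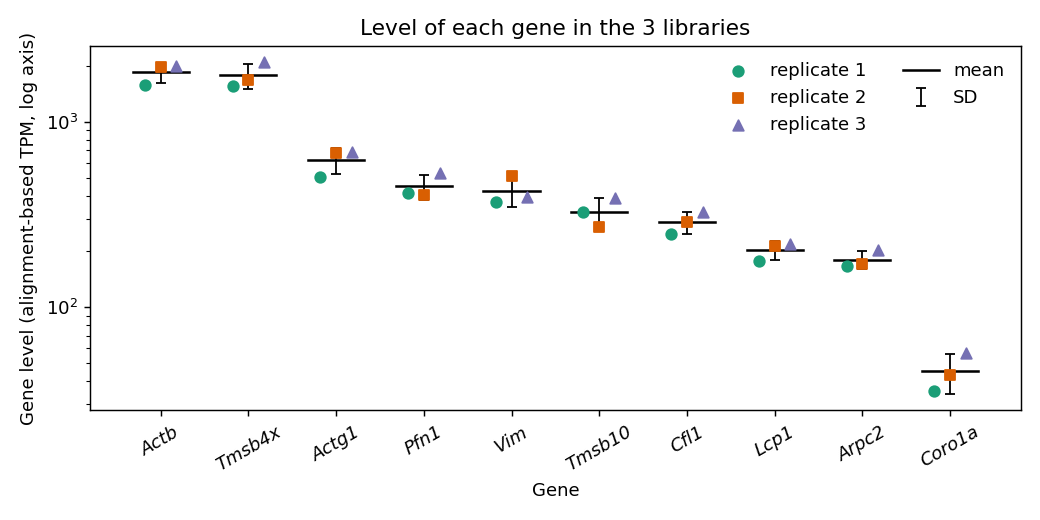
Gene level in alignment-based TPM (log axis) of the 10 genes in replicates 1, 2 and 3, with the mean (line) and SD (bar, n = 3). Means run from 1845 TPM for Actb to 45.1 TPM for Coro1a, and 4 of the 9 neighbouring pairs cannot be ordered beyond their spread.

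**Figure D2:**
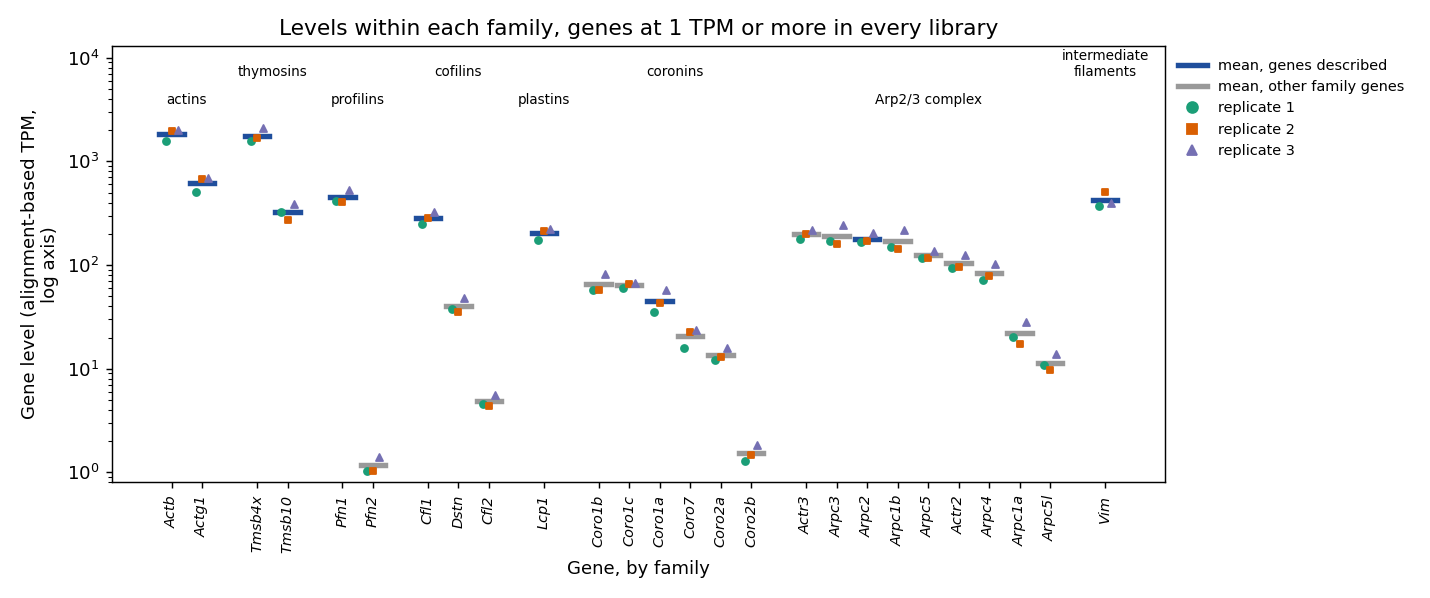
Alignment-based TPM (log axis) of every family gene at 1 TPM or more in each of the 3 libraries, as points with the mean as a line. Actb, Tmsb4x, Pfn1, Cfl1, Lcp1 and Vim stand above their relatives, while Coro1a lies below Coro1b and Coro1c and Arpc2 lies among the other Arp2/3 subunits.

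In the order of mean TPM, neighbours were called apart where their ratio had the same direction in 3 of 3 libraries and its mean log2 exceeded its SD. By that rule 5 of 9 neighbouring pairs were apart. The widest steps were Arpc2 over Coro1a, at 4.05-fold, and Tmsb4x over Actg1, at 2.87-fold. Actg1 over Pfn1 (1.38-fold), Cfl1 over Lcp1 (1.41-fold) and Lcp1 over Arpc2 (1.13-fold) were smaller. The last step depended on the table. In the alignment-free tables Lcp1 over Arpc2 was not apart, with log2 ratios of -0.007, 0.287 and 0.052 in replicates 1, 2 and 3. Pfn1 over Tmsb10, which are not neighbours in the alignment-based order, was apart there. So 5 pairs were apart in both kinds of table but not the same 5. Pfn1 was above Tmsb10 in all 3 libraries in the alignment-based tables too. Actb and Tmsb4x, Pfn1 and Vim, and Tmsb10 and Cfl1 changed places between libraries. Vim was above Tmsb10 in all 3 libraries, but the mean log2 ratio of 0.37 was smaller than its SD of 0.48. No exact paired test was made, since 3 libraries allow no two-sided p under 0.25. Ordered by CPM, where length is not divided out and levels of different genes are not comparable per molecule, 8 pairs were apart and the shortest RNA, Tmsb10, stood 9th instead of 6th.

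Other genes of actin control were read from the same libraries to place these levels. Of 15 capping and severing genes, 11 reached 1 TPM in every library, with Capg, a macrophage capping protein, at 195.6 ± 17.9 TPM, Capzb at 122 ± 16.2 TPM, Cap1 at 109.9 ± 17.1 TPM and Capza2 at 87.9 ± 24.7 TPM; Scin, Vil1, Avil and Cap2 had at most 17 counts. Of 20 genes that promote filament nucleation 16 did, led by Nckap1l at 85.0 ± 12.4 TPM, the haematopoietic subunit of the WAVE complex. Hcls1, Brk1 and Wipf1 followed at 51.1 ± 9.43, 45.6 ± 7.56 and 42.2 ± 8.47 TPM, and Nckap1, Cttn, Wasf1 and Wasf3 stayed under 1 TPM.

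Of 20 crosslinker and myosin genes 18 did, with the myosin light chain Myl6 at 341 ± 47.2 TPM, Tpm3 at 159 ± 13.0 TPM, Myo1f at 109 ± 14.8 TPM and Msn at 106 ± 11.4 TPM, while the fascin gene Fscn1 was at 0.61 ± 0.19 TPM. Many of these genes lay within the range of the members' means, 45.1 to 1845 TPM. Among them were Myl6, Capg, Tpm3, Capzb, Cap1, Myo1f, Msn, Capza2 and Nckap1l. Srf, Mrtfa and Mrtfb lay below it. Those 3 genes, transcription regulators known to act on actin genes, were at 7.02 ± 1.20, 20.0 ± 2.86 and 9.09 ± 1.60 TPM.

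Some of the 10 genes had 1 dominant transcript, while others were divided between several. The annotation (GENCODE M21) lists 66 transcripts for them, of which 43 are protein-coding, 16 are classed as retained intron, 5 as processed transcript and 2 as targets of nonsense-mediated decay. Shares of a gene's TPM are given from transcript tables made by alignment and from tables made without alignment; the leading transcript was the same in both for 9 of 10 genes. Leading transcripts held over 90% of alignment-free TPM on average in 5 of the 10 genes and over 80% in 6.

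Actb-201 held 99.2, 98.7 and 99.1% of Actb TPM in the alignment-based tables and 91.3, 89.1 and 96.8% in the alignment-free tables. The difference went mainly to the 536-base Actb-202, at 0.06, 0.04 and 0.09% in the alignment-based tables and 7.12, 8.50 and 1.71% in the alignment-free ones. Tmsb4x-201 held 98.7 ± 0.75% and 98.1 ± 0.84%, Tmsb10-203 98.3 ± 0.29% and 98.4 ± 0.44%, and Pfn1-201 99.1 ± 0.82% and 99.1 ± 0.85% of their gene's TPM in the alignment-based and alignment-free tables. In all 3 of these genes replicate 2 had the lowest leading share.

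Actg1 was split differently by the 2 kinds of table. Actg1-202 held 71.3, 56.4 and 64.8% of Actg1 TPM in the alignment-based tables and 98.4, 90.9 and 90.9% in the alignment-free tables. Actg1-204 took 27.3, 39.9 and 33.5% in the alignment-based tables, and 0.00, 5.15 and 7.41% in the alignment-free ones. Actg1-204 (1827 bases) has the same coding sequence as Actg1-202 (1952 bases) and holds 0 bases of its own: it lacks 125 bases of the longer RNA, nearly all in the first, untranslated exon. Either transcript therefore encodes the same actin.

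Cfl1-201 held 74.4, 74.8 and 74.7% of Cfl1 TPM in the alignment-based tables and 78.8, 79.3 and 73.1% in the alignment-free tables. Cfl1-202 followed at 24.4, 23.3 and 23.0% and at 12.8, 14.2 and 12.4%. A further model, Cfl1-204, took 0.96, 1.22 and 2.18% and 8.20, 5.89 and 14.4% in the 2 kinds of table. By counts the first pair was closer, with 57.6 ± 0.78% and 41.6 ± 1.04% of alignment-based Cfl1 counts on Cfl1-201 and Cfl1-202, since Cfl1-202 is 2354 bases long and Cfl1-201 1148 bases. All 1148 bases of Cfl1-201 lie within Cfl1-202, which holds 1206 bases of its own. Cfl1-202 reaches further at both ends, spanning chr19:5490455-5495201 against chr19:5490485-5494029 for Cfl1-201. The shorter model leaves out 2 gaps of 2 bases each, and the first of these takes 2 bases of the TGA stop codon of Cfl1-202 (chr19:5493491-5493493). Most bases found only in Cfl1-202 lie outside these gaps, so the shares do not show how much Cfl1 RNA lacks the stop codon. The reading frame is annotated as 166 codons in Cfl1-202 and 227 codons in Cfl1-201. The stretch of Cfl1-202 is printed with the 4 bases that Cfl1-201 leaves out in capitals (mm10, chr19:5493482-5493506, plus strand).
Cfl1-202: aagcctttgTGagccacCTccagcc

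Arpc2 and Lcp1 each divided between a pair of transcripts with 1 coding sequence. Arpc2-203 held 68.7, 66.6 and 71.6% in the alignment-based tables and 67.0, 63.3 and 70.4% in the alignment-free ones, and Arpc2-201 nearly all of the remainder. Both encode the same 300 codons and differ only outside them. Lcp1-209 held 54.0, 50.7 and 63.4% in the alignment-based tables and 65.8, 55.0 and 71.5% in the alignment-free ones, with Lcp1-206 at 44.2, 45.3 and 34.3% and at 28.7, 35.4 and 22.7%. The 627 codons of Lcp1 are the same in both, and the first exons differ. Replicate 3 had the highest share of the leading transcript in both genes and in both kinds of table.

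Coro1a-201 held 95.1, 90.9 and 95.3% of Coro1a TPM in the alignment-based tables and 88.9, 68.9 and 91.4% in the alignment-free tables. The low value was that of replicate 2 in each. Coro1a-202, which has the same 461 codons with another first exon, reached 1.88% and 10.3% in that library in the 2 kinds of table. The retained-intron transcripts of Coro1a together took more there, 5.60% and 12.7%.

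**Figure D3:**
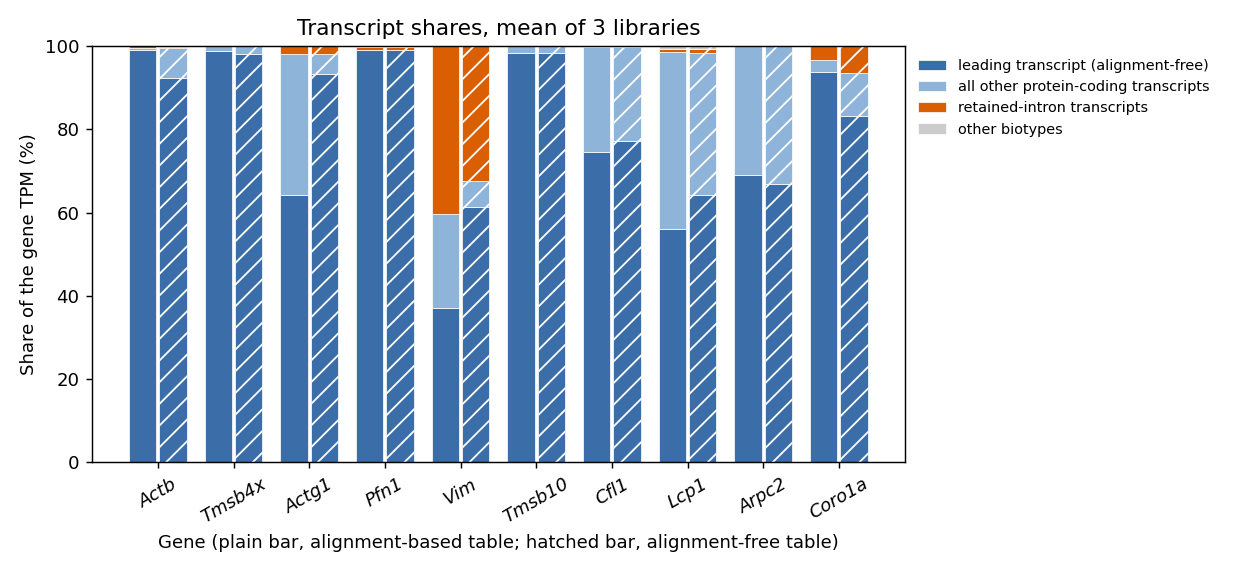
Mean share of gene TPM over 3 libraries on the transcript that leads in the alignment-free tables, on other protein-coding transcripts, on retained-intron transcripts and on other biotypes, with the alignment-based table as the plain bar left of the hatched alignment-free bar. Vim is the gene with a large retained-intron share, and Actg1 and Vim are the genes whose leading share differs most between the tables.

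Vim was the gene where the tables named different leading transcripts. Vim-201, the protein-coding model of 466 codons, held 39.6, 31.6 and 39.9% of Vim TPM in the alignment-based tables and 68.5, 52.6 and 63.1% in the alignment-free tables. Vim-203, a 535-base transcript classed as retained intron, held 35.2, 48.2 and 35.8% in the alignment-based tables and 26.3, 41.1 and 25.4% in the alignment-free ones. Replicate 2 had the highest Vim-203 share in both.

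Vim-203 took far less of the counts than of the TPM: 8.69, 14.0 and 9.33% of alignment-based Vim counts. Of its 535 bases, 483 are also part of Vim-201, and 52 are intronic, just before exon 5. Another transcript, Vim-206, holds no base that Vim-201 lacks and leaves out 416 bases of it. These are exon 8 (86 bases) and, for nearly all of the rest, the 5' end, where Vim-206 starts at chr2:13574281 and Vim-201 at chr2:13573952. Vim-206 took 24.6, 19.1 and 23.5% of TPM in the alignment-based tables and 3.76, 4.04 and 10.4% in the alignment-free ones. With both differences present, these shares do not measure skipping of exon 8. The start of Vim-203 is printed with the 52 intronic bases in capitals and the first 20 bases of the exon in lower case (mm10, chr2:13579369-13579440, plus strand).
Vim-203: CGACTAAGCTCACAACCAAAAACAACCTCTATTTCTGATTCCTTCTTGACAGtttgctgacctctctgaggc

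Summed over its protein-coding transcripts alone, Vim had 237, 258 and 250.2 TPM in replicates 1, 2 and 3 (248 ± 10.9 TPM), against 424 ± 75.0 TPM for all transcripts. In TPM over all RNA the 3 sums were close, and Vim moved from 5th to 7th of the 10 genes, below Tmsb10 and Cfl1. That closeness is not read as equal Vim RNA in the libraries. Nuclear protein-coding genes held 22.7, 22.9 and 29.8% of all gene TPM, which raises the value of replicate 3. Replicate 2 has the highest sum and a share close to that of replicate 1. Set against these shares, replicate 2 therefore stays the highest and replicate 3 becomes the lowest. The rescaled sums themselves were not computed. For the other 9 genes, the protein-coding sum was close to the sum over all transcripts. The widest relative gap was in Coro1a, at 43.6 against 45.1 TPM, then in Actg1, at 609 against 621 TPM.

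**Figure D4:**
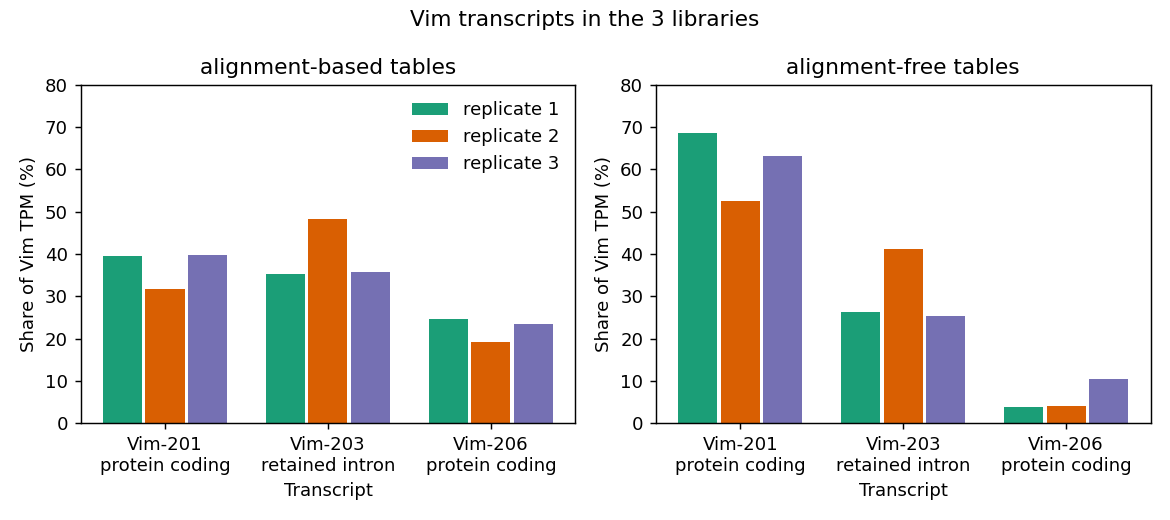
Share of Vim TPM on Vim-201, Vim-203 and Vim-206 in replicates 1, 2 and 3, from the alignment-based tables (left) and the alignment-free tables (right). The Vim-203 bar of replicate 2, at 48.2 and 41.1%, is the highest of its 3 in both panels.

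Transcripts classed as retained intron exist for 7 of the 10 genes (Actb, Actg1, Pfn1, Cfl1, Coro1a, Lcp1 and Vim). Their share of gene TPM was highest in replicate 2 for 7 of 7 genes in both kinds of table, a pattern looked at after the tables had been seen. It was also highest there for 70.4% of nuclear protein-coding genes with such a transcript in the alignment-based tables and 76.3% in the alignment-free tables, so the members are not set apart by it. In Coro1a the share was 1.73, 5.60 and 2.54% in the alignment-based tables, and in Pfn1 0.26, 1.62 and 0.31%. The median over the 7 members, 0.37, 1.62 and 0.45%, was below that of all such genes, 1.79, 3.90 and 1.57%. Vim was far above the latter, at 35.7, 49.2 and 36.5%, and Coro1a was above it in replicates 2 and 3. These are alignment-based TPM shares. In the alignment-free tables Coro1a was above the median of all such genes in all 3 libraries. By alignment-based counts Coro1a was above that median in replicate 2 alone, and Pfn1 in replicates 2 and 3.

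Spread between libraries was read on log2 CPM scaled with TMM factors, which does not carry the TPM denominator. The SD over the 3 libraries was 0.02 for Tmsb4x, 0.05 for Pfn1, 0.06 for Arpc2, 0.07 for Cfl1, 0.12 for Lcp1, 0.14 for Coro1a, 0.15 for Actb, 0.16 for Actg1, 0.18 for Tmsb10 and 0.23 for Vim. Tmsb4x was nearly level on this scale: 4.09% of the genes averaging at least 100 counts had a smaller SD. For Vim, 84.9% of them had a smaller SD. The members' median SD was 0.13, against 0.11 over those 10348 genes and 0.10 over the 1656 genes at least as abundant as Coro1a. That gap depended on the setting. With DESeq2 size factors the medians of the members and of the 10348 genes were 0.115 and 0.111. With alignment-free counts they were 0.103 and 0.112, the other way round.

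Between any 2 libraries, 0 of 10 members differed by more than 1.5-fold. Of all 10348 genes, 4.91% did so in replicate 2 over replicate 1, 2.68% in replicate 3 over replicate 1 and 7.82% in replicate 3 over replicate 2. The widest member was Vim, at 1.38-fold, followed by Tmsb10 at 1.27-fold. The half-width of the deposited bounds on TPM was 0.39 to 3.13% of their midpoint over all members and libraries. The coefficient of variation of TPM between libraries ran from 11.2 to 24.3%.

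Members did not follow 1 pattern. Replicate 2 was the highest library for Actb (deviations from the gene mean of log2 CPM of -0.05, 0.17 and -0.12), Actg1 (-0.11, 0.18 and -0.08), Lcp1 (-0.02, 0.13 and -0.11), Vim (0.05, 0.20 and -0.26) and Cfl1 (-0.02, 0.07 and -0.06). It was the lowest for Tmsb10 (0.14, -0.20 and 0.06) and Pfn1 (0.04, -0.05 and 0.01). Coro1a stood highest in replicate 3 and Arpc2 in replicate 1. Without replicate 2 the median SD of the members was 0.057. That of all genes averaging at least 100 counts also fell, from 0.107 to 0.067. Replicate 2 also had the highest retained-intron shares and the highest counts of 7 of 7 neutrophil markers, none of them at 0, with a summed level of 29.1, 51.3 and 33.4 TPM in replicates 1, 2 and 3. Ngp, for example, had 279, 502 and 126 counts and Mpo 44, 99 and 19. This was not particular to neutrophil markers. The 4 megakaryocyte markers were also highest there, such as Pf4 with 5188, 5686 and 4300 counts and Itga2b with 15, 53 and 12. Among the macrophage markers only Itgam was. The share of all genes with their highest counts in replicate 2 was not computed. The part of any of these in the deviations was not tested.

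**Figure D5:**
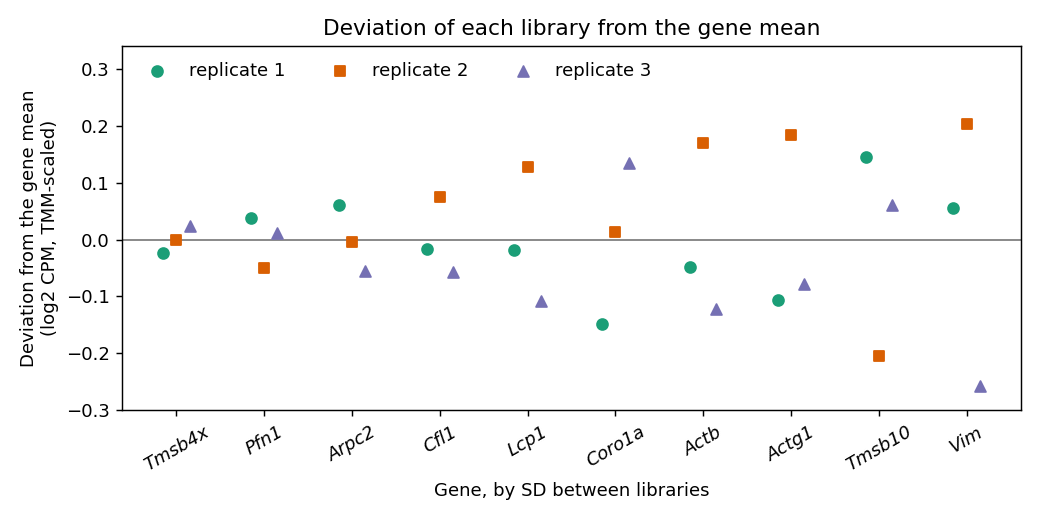
Deviation of each library from the gene mean (log2 CPM with TMM scaling) for the 10 genes, from the smallest SD (Tmsb4x, 0.02) to the largest (Vim, 0.23). Replicate 2 is the top point for Actb, Actg1, Lcp1, Cfl1 and Vim and the bottom point for Tmsb10 and Pfn1.

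The order of the libraries therefore depended on the scale. Tmsb4x was at 1561, 1685 and 2084 TPM over all RNA, at 6886, 7371 and 7000.5 TPM when rescaled to nuclear protein-coding genes, and at 1676, 1720.2 and 1805 CPM. Actb, highest in replicate 3 in TPM over all RNA, was highest in replicate 2 after the rescaling, at 6962, 8599 and 6687. In the alignment-free tables over all RNA, where protein-coding genes held 10.7, 6.27 and 6.54% of TPM, Actb was at 759, 558 and 433 TPM, with replicate 1 on top. TPM differences between these libraries are therefore not read as differences in the cells.

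The 5 genes of mean count 1000 or more whose deviations lay nearest to the members' median were Nop9, Riok3, Acvr1b, Lonp1 and Ankrd50, at a root mean square distance of 0.010 to 0.011 in log2 CPM over 3 libraries. Such likeness is common, since 22.0% of 5560 genes lay within 0.05 of the same pattern, as did only 1 of the 10 members.

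Related sequences elsewhere in the genome limit some values. Of the 50-base windows of each leading transcript, 56.7% for Actg1, 63.5% for Tmsb10, 19.1% for Cfl1, 14.2% for Actb and 7.46% for Lcp1 also occur in transcripts of other genes, 0.22% for Arpc2, and 0 for Tmsb4x, Pfn1, Coro1a and Vim. With 100-base windows the shares were 51.1% for Actg1 and 27.8% for Tmsb10 and at most 1.10% for every other member. The main partner of Actg1 was the processed pseudogene Gm12715, which was given 822, 798 and 983 counts, against 87569, 88890 and 67903 for Actg1. The main partner of Tmsb10 was Gm9844, with 15, 22 and 42 counts, against 11888, 7749 and 8521 for Tmsb10. For Actg1 and Tmsb10 the counts are therefore uncertain by the reads that these copies could have given or taken.

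The 2 quantifications gave like gene totals by counts. After centring on the median over 9927 nuclear protein-coding genes, the alignment-based over alignment-free count ratio was past 1.5-fold for 0 of 10 members and 0.997% of all genes. The members' median log2 ratio was 0.00. Tmsb10 was the lowest, at -0.17, -0.17 and -0.17 in replicates 1, 2 and 3, and Actg1 was the highest at 0.04, 0.06 and 0.04. By TPM the centred log2 ratios were wider. Vim was then the highest, at 0.29, 0.29 and 0.28 in replicates 1, 2 and 3. Cfl1 had the lowest mean, at -0.20, -0.11 and -0.20.

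Genes that overlap a member on the map were few. Snx32 lies opposite Cfl1 over 2967 bases and had 415, 356 and 311 counts, against 31376, 27775 and 23203 for Cfl1. Bola2 overlaps Coro1a by 26 bases on the other strand and had 1009, 742 and 622 counts, against 5140, 4771 and 4754 for Coro1a. Not given in the sources used here is whether the counting used strand, and reads in these overlaps cannot be told apart. The overlapping noncoding genes of Actg1 and Lcp1 had at most 5 counts, and no annotated gene overlapped Actb, Tmsb4x, Tmsb10, Pfn1, Arpc2 or Vim.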

How the data were processed

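RNA from the cytosolic fraction of 3 BMDM cultures was sequenced, and the 3 libraries form 1 group. Per the file headers, the deposited alignment-based gene and transcript tables have RSEM columns, with expected counts and TPM. The deposited alignment-free tables have kallisto columns, with estimated counts and TPM. The authors' TPM sums over every target, and their counts are not normalized. The deposited text files name mm10 and GENCODE M21. Not given in the sources used here are tool versions and strandedness. Lower and upper bounds of TPM are those in the deposited gene tables.

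Members were matched by symbol. The members and gene lists were chosen with earlier results of these data known. Levels are alignment-based gene TPM. A control sequence without a gene held 0.1863, 0.1672 and 0.0395% of counts and stayed out of library sizes. Expected counts were rounded and scaled with TMM in edgeR 4.0.16 (R 4.3.3), and log2 CPM used a prior count of 2; a gene-wise SD was computed at a mean of at least 100 counts, and the step was tested on simulated data. Transcript shares are percents of gene TPM. Sequence windows were compared, on the sense strand, with every GENCODE M21 transcript. Genes named are the 10 members, every family gene, the 4 highest and all those under 1 TPM of the other lists, and the 5 nearest in pattern. A further list is not reported here. With 1 group no p-value was computed. Biological replicates share a donor record, so SDs may miss variation between animals. The alternatives were the alignment-free tables, counts, other denominators, pseudocounts and filters, DESeq2 1.42.0 size factors, protein-coding transcripts alone and each replicate left out. Python 3.11.15, numpy 2.4.6, pandas 2.3.3 and matplotlib 3.10.9 were used.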

Additional observations from a re-analysis of the deposited data

How the results depend on the processing

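No paired analysis was possible because the study has a single group. The members' combined level of 2.47% of nuclear protein-coding TPM was 1.54% by counts and 0.616% over the TPM of every table entry, both by construction of the measure, and lay between 2.34 and 2.55% with 1 replicate left out. Of 9 neighbouring pairs, 5 were apart by TPM, 8 by CPM, which leaves length in, and 7 with protein-coding transcripts alone, an alternative chosen after seeing the data; 5 to 7 were apart with 1 replicate left out. The median SD of 0.13 in log2 CPM was 0.21 in log2 TPM, where that of all genes was 0.25, and 0.057 to 0.128 with 1 replicate left out, lowest without replicate 2, when that of all genes was 0.067; the cause was not tested. The number of genes leading their family (6) and of members past 1.5-fold between the quantifications (0) did not change under the alternatives run, and 9 or 10 members kept 1 leading transcript across tables. Of the values for single genes, 81 stayed within 1 SD and 19 moved further, most with counts or with the other kind of table. The 81 include every value with 1 replicate left out, a step that cannot move a mean of 3 libraries past its SD. Their number is therefore no measure of stability. The Vim-201 share ran from 37.0% in the alignment-based tables, where Vim-203 leads at 39.7%, to 91.0% of protein-coding TPM. Depth is no limit for the members, which had 4754 or more counts each; it limits the relatives listed at 0 to 3 counts.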
